A study of Mus musculus with 20 samples.

Results

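The 41 genes described here are the collagen genes of the mouse ovary: every row of the expression table whose symbol is Col, a number, the letter a and a number, and whose expected counts summed to at least 100 over 20 libraries. Of 20960 rows in the table, 44 carry such a symbol. The 3 that fell short are Col19a1 with 39 counts, Col2a1 with 28 and Col9a1 with 11, while the members closest above the minimum are Col10a1 with 213 and Col24a1 with 598. All 41 passed the filter on low counts and were among the 15723 genes tested. The messenger RNA of 20 ovary samples had been sequenced in 4 labelled groups of 5 libraries each. The group ptLNPIFN-Y is labelled as ovarian cancer with the agent ptLNPIFN-Y, and LNPIFN-Y as ovarian cancer with the agent LNPIFN-Y. Model is labelled as ovarian cancer alone, and Control carries no treatment. Per the series text, the mice were C57BL/6, the tumour was made by injecting the mouse ovarian cancer line ID8Luci into the ovarian bursa after the bursa had been expanded with a particle called ptLNPFSHα&β, and ptLNP is a lipid nanoparticle targeted by a peptide and loaded with mRNA for interferon-γ and injected into the peritoneal cavity. The labels neither describe the particle without the prefix pt nor give the age of the mice, and they do not say whether Control underwent bursa expansion or a sham operation. No group received an empty particle, so the particle and its mRNA cannot be told apart.

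Collagens are the main structural proteins of the extracellular matrix. Their alpha chains wind in triplets into a triple helix, which is hydroxylated and folded in the cell, secreted as procollagen, trimmed and cross-linked outside. Fibrillar collagens such as types I, III and V form the rope-like fibrils of the ovarian stroma and capsule, fibril-associated collagens decorate those fibrils, and collagen IV forms the sheet of basement membranes around follicles and vessels. Collagen VI makes beaded microfilaments, collagens VIII and X form hexagonal networks, multiplexins carry sugar chains at basement membranes, and transmembrane collagens stay anchored in the cell surface. In ovarian tumours, collagens are known as products of activated fibroblasts in the stroma.

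Total counts per library lay between 16496793 and 17218043. Nothing in the labels assigns the libraries to batches, and they do not say whether the 5 of a group came from separate animals, so p-values measure only the spread between these libraries, which may be technical. The series text speaks of single-cell sequencing, whereas each column used here is a bulk library. The samples differed in how much ovarian and oviduct RNA they held. The summed level of 7 granulosa markers, which define the somatic cells of the follicle, ranged from 130 to 2063 CPM (counts relative to the library's total, scaled by TMM, a factor that corrects for library composition) in ptLNPIFN-Y, from 44.4 to 1433 in LNPIFN-Y, from 501 to 2327 in Model and from 1341 to 2670 in Control. The 8 oviduct epithelium markers summed to between 15.3 and 4007 CPM in ptLNPIFN-Y, 23.1 and 4240 in LNPIFN-Y, 17.6 and 9314 in Model, and 1158 and 15471 in Control. Zp3, which encodes an egg-coat protein, was at 0 in ptLNPIFN-Y 5 and LNPIFN-Y 5, and Model 3 and LNPIFN-Y 5 stood apart for several collagen genes below.

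Collagen transcripts made up 0.494% ± 0.193 of all counts in ptLNPIFN-Y, 0.735% ± 0.325 in LNPIFN-Y, 0.761% ± 0.299 in Model and 0.559% ± 0.132 in Control (SD, n = 5 each). The ranges of the groups overlapped, from 0.269% to 0.754% in ptLNPIFN-Y, 0.528% to 1.31% in LNPIFN-Y, 0.41% to 1.14% in Model and 0.347% to 0.67% in Control. Per kilobase of the gene model, the mean level over 20 libraries was highest for Col3a1 at 270 CPM per kb ± 206, followed by Col1a2 at 178 ± 80.2, Col6a1 at 127 ± 44.3, Col1a1 at 123 ± 91.7 and Col4a1 at 85.6 ± 27.2 (SD over libraries). The means of neighbours in this order differed by less than the larger of their SDs over libraries, but in most cases by more than the smaller. The lowest were Col22a1 at 0.28, Col24a1 at 0.244 and Col10a1 at 0.208 CPM per kb. The 10 fibrillar genes held 52.9% ± 6.23 of the collagen level per kb in ptLNPIFN-Y, 59.6% ± 9.33 in LNPIFN-Y, 52.5% ± 7.36 in Model and 50.9% ± 1.89 in Control (SD, n = 5 each). The 6 collagen VI genes held 19.2% ± 2.16 in ptLNPIFN-Y, 18% ± 5.14 in LNPIFN-Y, 22.1% ± 4.07 in Model and 22.3% ± 2.04 in Control.

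The fibrillar collagens were the most abundant class. Col1a1 (Entrez ID 12842, chr11:94936224-94953042 of GRCm38.p6) encodes the alpha 1 chain of collagen I, the main fibril protein. It had 330, 962, 376, 306 and 880 CPM in ptLNPIFN-Y libraries 1 to 5. It had 666, 610, 551, 752 and 2566 CPM in LNPIFN-Y, 926, 1731, 729, 464 and 283 in Model, and 470, 304, 506, 575 and 564 in Control. The groups overlapped throughout, with LNPIFN-Y 5 above every other library and Model 2 next, while the Control libraries lay close together. Col1a2, the alpha 2 chain of the same trimer, had 702, 1172, 553, 385 and 1049 CPM in ptLNPIFN-Y, 812, 934, 790, 1175 and 1837 in LNPIFN-Y, 1245, 2069, 763, 831 and 505 in Model, and 723, 512, 831, 822 and 870 in Control. Here Model 2 was the highest library and ptLNPIFN-Y 4 the lowest.

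Col3a1 (Entrez ID 12825, chr1:45311538-45349706), the only chain of collagen III and a partner of collagen I in soft tissue, had 877, 1965, 639, 471 and 1703 CPM in ptLNPIFN-Y and 1319, 1336, 1116, 1645 and 5711 in LNPIFN-Y. It had 2528, 2379, 1624, 847 and 592 CPM in Model and 1051, 577, 890, 1410 and 1362 in Control. LNPIFN-Y 5 stood above every other library, and the 4 groups overlapped. None of these fibrillar genes passed the test in any comparison. In ptLNPIFN-Y against Model the log2 fold changes were -0.53 ± 0.50 for Col1a1, -0.49 ± 0.36 for Col1a2 and -0.49 ± 0.52 for Col3a1 (SE, n = 5 each, edgeR adjusted p 0.523, 0.415 and 0.568). In Model against Control they were 0.77 ± 0.50, 0.53 ± 0.36 and 0.59 ± 0.52 in the same gene order (SE, n = 5 each, edgeR adjusted p 0.936 each). With libraries weighted by quality, Col1a1 stood at 0.15 and Col3a1 at 0.16 in ptLNPIFN-Y against Model, and Col3a1 at -0.060 in Model against Control, so these directions turned with the weighting. Without Model 2, Col1a1 stood at -0.073 and Col1a2 at -0.11 in ptLNPIFN-Y against Model, and at 0.31 and 0.15 in Model against Control. In bulk tissue, fewer cells of a type and less RNA per cell cannot be told apart.

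**Figure D1:**
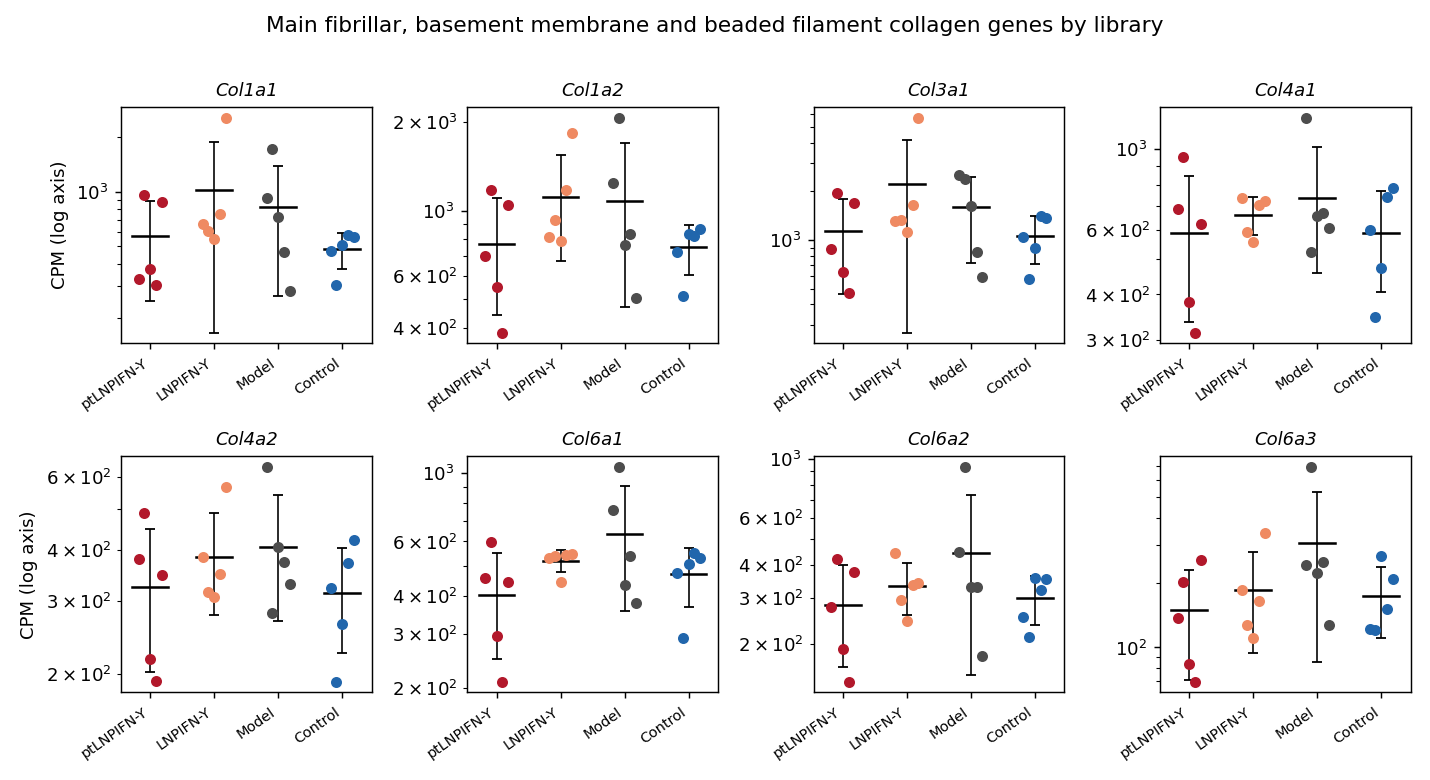
CPM (log axis) of 8 abundant collagen genes in the 20 libraries, 5 per group, with ptLNPIFN-Y left, then LNPIFN-Y, Model and Control; points are libraries, horizontal lines means and bars SD. The groups overlap in all 8 panels, and LNPIFN-Y 5 is the top point for Col1a1 at 2566 CPM and Col3a1 at 5711 CPM.

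Collagen IV is the network protein of basement membranes. Its main trimer joins alpha 1 and alpha 2 chains, from the neighbouring genes Col4a1 (Entrez ID 12826, chr8:11198423-11312889, minus strand) and Col4a2 (12827, chr8:11312805-11449287, plus strand), whose annotated spans overlap by 85 bases at their shared promoter. The RefSeq promoter windows of the pair on GRCm38.p6, from 250 bases before the start to 50 after it, run in opposite directions and share 78 bases. They are shown because both genes varied together from library to library, and whether the promoter has a part in that was not tested. Capitals mark CCAAT boxes (CCAAT) and GC boxes (GGGCGG) on either strand.
Col4a1, chr8:11312777-11313076, minus strand: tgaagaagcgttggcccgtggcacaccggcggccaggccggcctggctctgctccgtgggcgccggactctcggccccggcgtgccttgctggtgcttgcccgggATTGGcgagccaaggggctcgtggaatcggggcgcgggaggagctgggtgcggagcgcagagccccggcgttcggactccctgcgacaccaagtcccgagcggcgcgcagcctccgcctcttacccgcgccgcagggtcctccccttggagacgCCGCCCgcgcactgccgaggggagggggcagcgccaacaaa
Col4a2, chr8:11312555-11312854, plus strand: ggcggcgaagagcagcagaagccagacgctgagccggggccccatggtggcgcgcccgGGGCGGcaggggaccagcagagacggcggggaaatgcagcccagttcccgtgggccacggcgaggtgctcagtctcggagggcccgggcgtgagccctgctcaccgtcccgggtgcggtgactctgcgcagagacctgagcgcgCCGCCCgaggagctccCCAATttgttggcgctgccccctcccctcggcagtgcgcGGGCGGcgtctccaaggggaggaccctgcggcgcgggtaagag
Each window holds 1 CCAAT box, and the Col4a2 window holds 3 GC boxes against 1 in that of Col4a1. The GC box of the Col4a1 window lies in the shared bases and is the same site as the last of the 3 in Col4a2. The starts lie 21 bases apart.

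Col4a1 had 684, 950, 382, 314 and 625 CPM in ptLNPIFN-Y, 733, 594, 557, 701 and 722 in LNPIFN-Y, 1219, 524, 657, 668 and 609 in Model, and 601, 347, 473, 740 and 781 in Control. Col4a2 had 379, 491, 217, 193 and 348 CPM in ptLNPIFN-Y, 384, 316, 308, 348 and 565 in LNPIFN-Y, 633, 282, 406, 373 and 329 in Model, and 322, 192, 265, 372 and 421 in Control. Both genes were highest in Model 1, low in ptLNPIFN-Y 3, ptLNPIFN-Y 4 and Control 2, and overlapped between all groups. Their log2 fold changes in ptLNPIFN-Y against Model were -0.32 ± 0.29 and -0.31 ± 0.28, and in LNPIFN-Y against Model -0.15 ± 0.29 and -0.07 ± 0.28 (SE, n = 5 each, edgeR adjusted p 0.512, 0.496, 0.814 and 0.912). The other pairs are Col4a3 with Col4a4, whose spans overlap by 114 bases and whose proteins form the network of the mature kidney filter, and Col4a5 with Col4a6 on chromosome X. Col4a6 had 24, 37.6, 38.5, 45 and 23.4 CPM in ptLNPIFN-Y, 40.5, 26.5, 33, 25.4 and 216 in LNPIFN-Y, 26.6, 35.6, 105, 29 and 18.1 in Model, and 25.8, 28.3, 29.7, 30.2 and 25.3 in Control. LNPIFN-Y 5 and Model 3 stood far above the other 18 libraries, which lay between 18.1 and 45 CPM.

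Collagen VI forms microfilaments around cells from alpha 1, alpha 2 and an additional, longer chain. Its 6 genes were all negative in ptLNPIFN-Y against Model, with a median log2 fold change of -0.70, and all negative in LNPIFN-Y against Model with a median of -0.51, while 5 of 6 were positive in Model against Control with a median of 0.40. None of these differences passed the test. Col6a1 (Entrez ID 12833, chr10:76708792-76726044, minus strand) had 456, 597, 295, 210 and 444 CPM in ptLNPIFN-Y, 530, 539, 443, 544 and 545 in LNPIFN-Y, 761, 1050, 433, 539 and 379 in Model, and 474, 291, 505, 549 and 530 in Control. Model 1 and Model 2 were the highest libraries and ptLNPIFN-Y 4 the lowest, with overlap between the groups. Its log2 fold change in ptLNPIFN-Y against Model was -0.66 ± 0.28 (SE, n = 5 each, edgeR p 0.03, adjusted p 0.172).

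Col6a2 had 276, 420, 191, 144 and 375 CPM in ptLNPIFN-Y, 444, 295, 246, 336 and 341 in LNPIFN-Y, 445, 936, 330, 328 and 181 in Model, and 254, 213, 356, 319 and 352 in Control. Col6a3, the long chain that carries most of the surface domains of the filament, had 137, 202, 84, 69.3 and 255 CPM in ptLNPIFN-Y, 186, 127, 111, 165 and 341 in LNPIFN-Y, 242, 691, 223, 249 and 127 in Model, and 122, 121, 267, 152 and 209 in Control. Model 2 was the highest library for both, and the groups overlapped. Col6a3 had a log2 fold change of -1.04 ± 0.45 in ptLNPIFN-Y against Model and 0.82 ± 0.44 in Model against Control (SE, n = 5 each, edgeR adjusted p 0.18 and 0.936). Without Model 2 the first value was -0.49. Col6a4, an alternative long chain, ran from 13.4 to 115 CPM in ptLNPIFN-Y, 1.46 to 97.8 in LNPIFN-Y, 17 to 300 in Model and 54.9 to 147 in Control. It was lowest in LNPIFN-Y 5 and LNPIFN-Y 1, at 1.46 and 5.45 CPM.

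Across all 41 genes, the tumour model alone left no collagen gene past the test. In Model against Control, 31 had a positive and 10 a negative fold change, with a median of 0.36 on the log2 scale against 0.01 for all genes, and 0 passed the edgeR test at an adjusted p under 0.05. The background was 0% of all genes. At an unadjusted p under 0.05 there were 2, Col17a1 and Col10a1, against 4.91% of all genes, and DESeq2 called 1, Col17a1, against a background of 0.185%. No collagen gene had its Model libraries all above or all below those of Control, against 0.795% of all genes, of which 0.572% lay above and 0.223% below. The medians of the larger classes were 0.50 for fibrillar, 0.46 for fibril-associated, 0.34 for collagen IV and 0.40 for collagen VI genes.

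In ptLNPIFN-Y against Model the collagen genes lay mostly below Model, with 36 negative and 5 positive fold changes. Their median was -0.54, against -0.05 for all genes, and 1 passed the test, Col24a1, which was lower. Called genes were 7% of all genes tested in that comparison, and 0.948% counted those that were lower. The libraries of 2 members, Col24a1 and Col13a1, lay all below those of Model, against a background of 6.07% in either direction (4.83% above, 1.23% below). Col13a1 encodes a transmembrane collagen of cell adhesions. At an unadjusted p under 0.05 there were 8, against 22.4% of all genes, and DESeq2 called 2, Col24a1 and Col9a3, against a background of 12.2%. The 5 positive genes were Col17a1, Col28a1, Col9a3, Col5a3 and Col14a1. Markers of other cell types moved in the same comparison. All 8 smooth muscle markers had a negative fold change, with a median of -1.29, 8 at an unadjusted p under 0.05 and 0 past the test, and summed to between 143 and 1786 CPM in ptLNPIFN-Y and between 1383 and 5483 in Model. Of 10 fibroblast markers, 4 were positive and 6 negative with 0 past the test, and their sum ran from 939 to 2183 CPM in ptLNPIFN-Y and from 851 to 2461 in Model. All 8 adipocyte markers had a positive fold change with a median of 1.85, 7 at an unadjusted p under 0.05 and 0 past the test, and summed to between 766 and 18680 CPM in ptLNPIFN-Y and between 1042 and 2671 in Model. Of 8 leukocyte markers, 6 were higher, with a median of 2.41. Markers at 0 in a group were found in none of these lists, and the part of these cells in the collagen values was not tested.

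In LNPIFN-Y against Model, 15 were positive and 26 negative, with a median of -0.17 against -0.03 for all genes. None passed the edgeR test, against a background of 5.81%, of which 5.25% of all genes were higher and 0.566% lower, while 4 had an unadjusted p under 0.05, against 18.7% of all genes, and DESeq2 called 3, which were Col9a3, Col24a1 and Col13a1, against a background of 9.7%. Col13a1, with 1.23, 1.75, 2.45, 1.16 and 0.86 CPM in LNPIFN-Y and 2.79, 2.5, 2.55, 3.11 and 3.85 in Model, was the only member whose groups did not overlap, against 5.22% of all genes (4.33% above, 0.884% below). Between the particle groups, ptLNPIFN-Y against LNPIFN-Y, 11 were positive and 30 negative with a median of -0.24. There 0 passed the edgeR test and 0 that of DESeq2, the background being 0% with either tool, and 2 had an unadjusted p under 0.05, against 3.06% of all genes. The groups overlapped for all members, whereas 0.191% of all genes did not overlap (0.089% below). Comparisons with Model share its 5 libraries, and those with LNPIFN-Y or ptLNPIFN-Y share theirs, so the medians are not independent of each other.

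**Figure D2:**
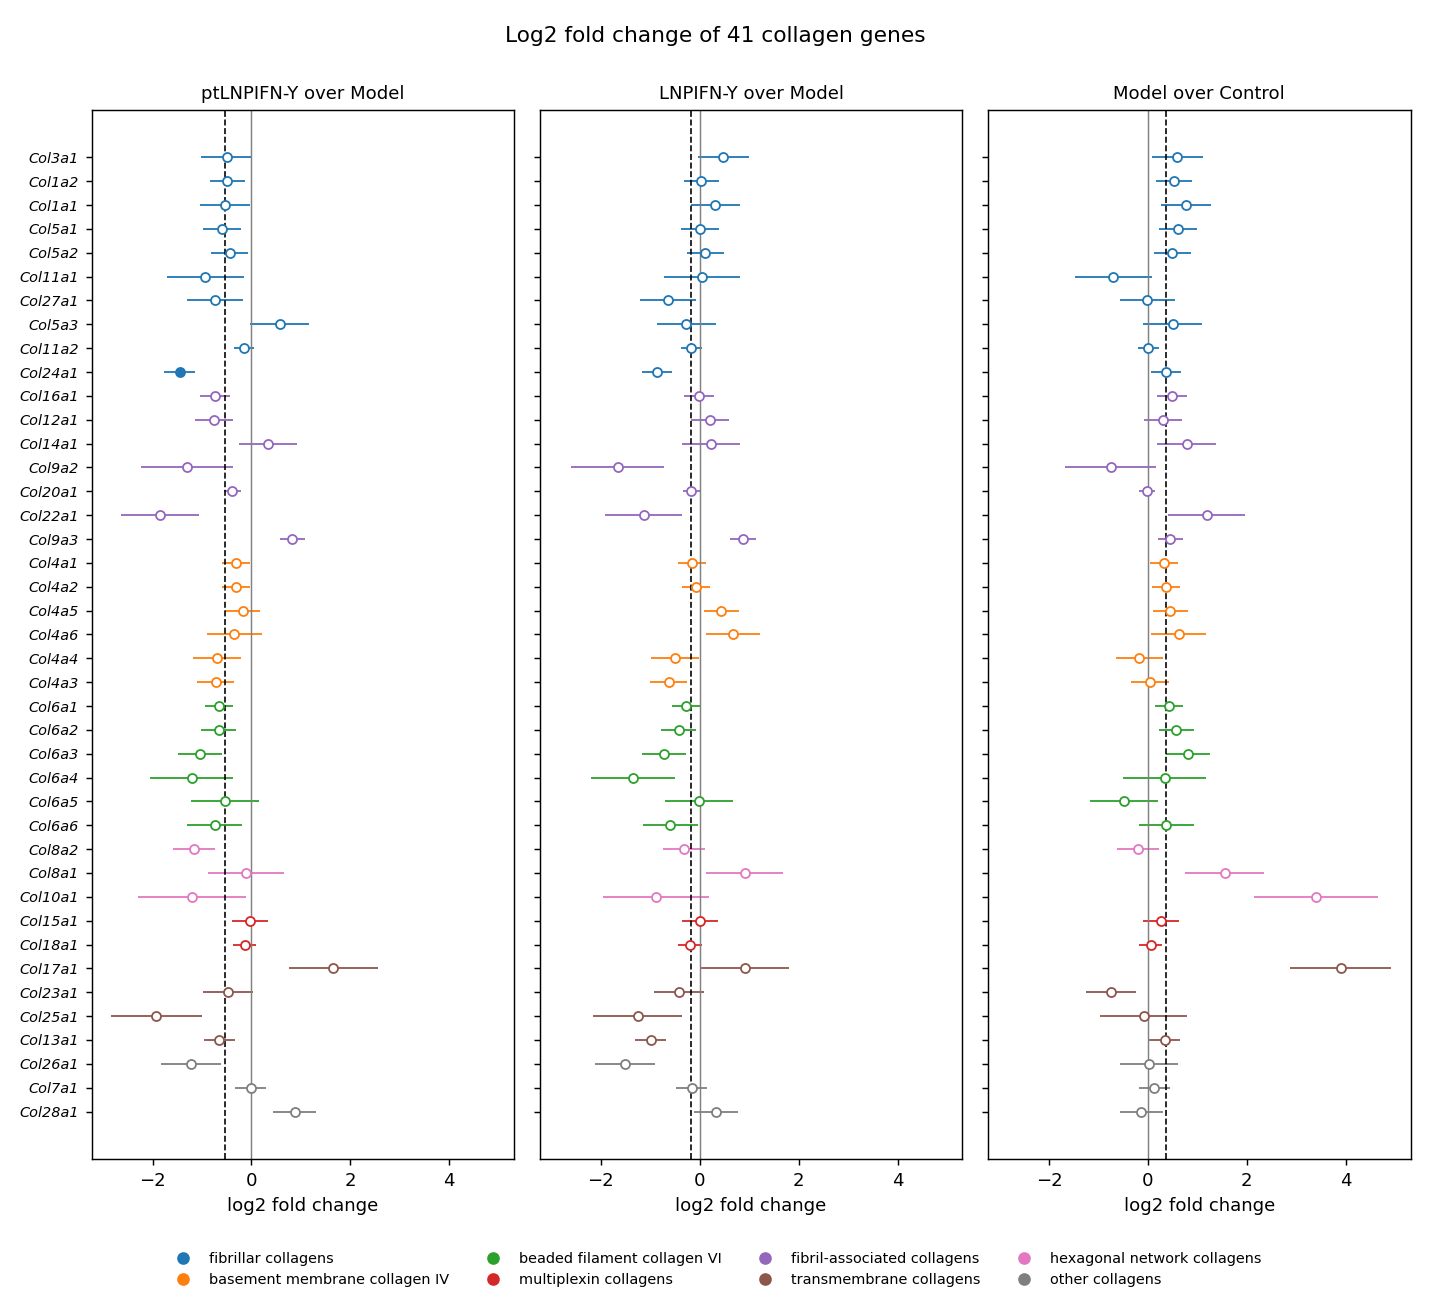
Log2 fold change (points) with SE (bars) of the 41 collagen genes, 1 row per gene and coloured by class, in ptLNPIFN-Y against Model, LNPIFN-Y against Model and Model against Control; filled points passed the edgeR test at an adjusted p under 0.05 and dashed lines are medians. Col24a1 at -1.45 in the first panel is the only filled point, and the medians are -0.54, -0.17 and 0.36.

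Col17a1 had the widest difference of any collagen gene between the groups with tumour and Control. It encodes the transmembrane collagen of hemidesmosomes, which fasten epithelial cells to their basement membrane (Entrez ID 12821, chr19:47646341-47692042, minus strand). It had 6.76, 11.5, 81, 82.8 and 26.5 CPM in ptLNPIFN-Y, 69.6, 12, 18.1, 22 and 3.84 in LNPIFN-Y, 3.98, 13.1, 45.2, 2.95 and 1.07 in Model, and 0.817, 0.607, 0.714, 1.29 and 0.976 in Control. All libraries of both particle groups lay above all Control libraries, and Model reached down into the Control range only through Model 5. The log2 fold change was 5.55 ± 1.09 in ptLNPIFN-Y against Control and 4.82 ± 1.06 in LNPIFN-Y against Control (SE, n = 5 each, edgeR adjusted p 0.00176 and 0.00497). In Model against Control it was 3.90 ± 1.02 (SE, n = 5 each), at an unadjusted p of 0.0013 and an edgeR adjusted p of 0.841, and DESeq2 gave an adjusted p of 0.00906.

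Against Model, Col17a1 did not pass the test, with a log2 fold change of 1.65 ± 0.90 in ptLNPIFN-Y and 0.92 ± 0.89 in LNPIFN-Y (SE, n = 5 each, edgeR adjusted p 0.285 and 0.608). Without Model 3, the library with 45.2 CPM, the first comparison had a value of 2.98 and an edgeR adjusted p of 0.0362. With the means of oviduct and ovarian marker genes as covariates, the call in LNPIFN-Y against Control was lost (4.11, edgeR adjusted p 0.0739). A list of 6 mesothelium and surface epithelium markers summed to between 466 and 1132 CPM in ptLNPIFN-Y, 529 and 2131 in LNPIFN-Y, 333 and 1445 in Model, and 371 and 712 in Control. None of the 6 was at 0 in a group, 1 of them passed the test in LNPIFN-Y against Control and 0 in ptLNPIFN-Y against Control, and their part in the result was not tested. Its RefSeq promoter window on GRCm38.p6 is given because the gene moved most, with 2 TATA boxes (TATAAA) and 1 CCAAT box on the opposite strand in capitals.
Col17a1, chr19:47691993-47692292, minus strand: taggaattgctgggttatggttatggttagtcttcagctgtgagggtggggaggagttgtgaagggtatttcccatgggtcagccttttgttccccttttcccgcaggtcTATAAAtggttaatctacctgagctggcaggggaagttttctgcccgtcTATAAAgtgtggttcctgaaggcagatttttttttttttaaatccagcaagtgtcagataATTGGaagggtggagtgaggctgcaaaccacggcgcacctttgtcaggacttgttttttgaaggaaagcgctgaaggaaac

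Col9a3 was higher in both particle groups than in Control. It encodes the alpha 3 chain of collagen IX, which coats collagen II fibrils in cartilage (Entrez ID 12841, chr2:180598102-180622192, plus strand). It had 2.89, 3.13, 3.74, 4.17 and 2.48 CPM in ptLNPIFN-Y, 4.73, 3.84, 2.9, 2.13 and 3.37 in LNPIFN-Y, 1.25, 2.15, 2.49, 1.99 and 1.36 in Model, and 1.09, 1.28, 1.7, 1.61 and 1.03 in Control. Every library of both particle groups lay above every Control library, and against Model the groups overlapped through Model 2 and Model 3. The log2 fold change was 1.28 ± 0.26 in ptLNPIFN-Y and 1.33 ± 0.26 in LNPIFN-Y against Control (SE, n = 5 each, edgeR adjusted p 0.00218 and 0.00176). Against Model it was 0.83 in ptLNPIFN-Y and 0.88 in LNPIFN-Y, neither past the test (edgeR adjusted p 0.0603 and 0.0515).

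For the mean of both particle groups against Model it was 0.85 ± 0.23 (SE, 10 and 5 libraries, edgeR adjusted p 0.0234), where 1 collagen gene was higher and 1, Col24a1, was lower, against a background of 9.02%, with 6.75% of all genes higher and 2.27% lower. That call was lost without Model 1, Model 4 or Model 5 (edgeR adjusted p 0.067, 0.0546 and 0.0873), in a fit of the 3 groups alone and with the tissue covariates, where the log2 fold change was 0.83 in each (edgeR adjusted p 0.0577 and 0.0887). The level is low, with 18 to 73 counts per library. Col9a3 overlaps Tcfl5 by 237 bases on the opposite strand, and Tcfl5 had 0 to 7 counts per library, fewer than Col9a3 had in any. Of 7 cartilage markers, 5 were tested, and 1 of them was lower and 0 higher in each particle group against Model. Col9a1, the alpha 1 chain, had 11 counts in all 20 libraries together. Col9a2, the alpha 2 chain, went the other way from Col9a3: it had 36.5, 6.02, 6.87, 5.82 and 0.603 CPM in ptLNPIFN-Y, 0.519, 15.8, 9.96, 17 and 0.0661 in LNPIFN-Y, 27.9, 21.3, 11.1, 52.1 and 24.9 in Model, and 35.4, 25.4, 49.3, 47.3 and 73.9 in Control. All LNPIFN-Y libraries lay below all Control libraries, with a log2 fold change of -2.41 ± 0.96 that did not pass the test (SE, n = 5 each, edgeR adjusted p 0.0952).

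Col24a1 was lower in ptLNPIFN-Y than in Model and in Control. It encodes a minor fibrillar collagen known from developing bone (Entrez ID 71355, chr3:145292472-145552013, plus strand). It had 0.861, 1.38, 0.904, 0.443 and 1.14 CPM in ptLNPIFN-Y, 1.23, 1.75, 1.14, 1.22 and 1.79 in LNPIFN-Y, 2.84, 3.84, 2.12, 2.47 and 1.7 in Model, and 2.02, 1.15, 2.25, 1.88 and 2.75 in Control. Every ptLNPIFN-Y library lay below every Model library, whereas LNPIFN-Y and Model overlapped through Model 5. The log2 fold change was -1.45 ± 0.31 in ptLNPIFN-Y against Model and -1.08 ± 0.31 in ptLNPIFN-Y against Control (SE, n = 5 each, edgeR adjusted p 0.00501 and 0.0222). In LNPIFN-Y against Model it was -0.86 ± 0.30 (SE, n = 5 each, edgeR adjusted p 0.116), and ptLNPIFN-Y against LNPIFN-Y gave -0.59 ± 0.31 (edgeR adjusted p 0.9997).

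The gene was near the minimum level, with 75 counts over the 5 ptLNPIFN-Y libraries and 227 over those of Model. The call against Control was lost without Control 3, Control 5 or ptLNPIFN-Y 4 (edgeR adjusted p 0.0511, 0.0533 and 0.0579) and with the tissue covariates, where the log2 fold change was -1.24 (edgeR adjusted p 0.0839). The call against Model held in all 20 fits that left out 1 library each, with log2 fold changes of -1.62 to -1.27. Granulosa and oviduct markers were also at lower levels in ptLNPIFN-Y, as given above, with 0 of 7 and 0 of 8 past the test against Model. The promoter window is shown as that of the member with this call; it holds none of the motifs searched.
Col24a1, chr3:145292222-145292521, plus strand: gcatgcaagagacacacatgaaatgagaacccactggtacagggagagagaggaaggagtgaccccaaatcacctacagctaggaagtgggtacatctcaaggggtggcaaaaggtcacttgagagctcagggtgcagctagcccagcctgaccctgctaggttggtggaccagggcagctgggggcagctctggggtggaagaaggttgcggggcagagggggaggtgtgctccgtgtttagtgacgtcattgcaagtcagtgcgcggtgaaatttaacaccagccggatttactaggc

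Col8a2 was lower in ptLNPIFN-Y than in Control. It encodes a chain of collagen VIII, the hexagonal lattice of the corneal membrane and of vessel walls (Entrez ID 329941, chr4:126286794-126314330, plus strand). It had 3.87, 12.1, 13.1, 4.87 and 8.11 CPM in ptLNPIFN-Y, 13, 8.73, 14.9, 8.76 and 29.8 in LNPIFN-Y, 10.1, 25.7, 13.8, 16.7 and 27.5 in Model, and 19.7, 35.5, 25.7, 16.7 and 9.76 in Control. ptLNPIFN-Y overlapped the Control group through Control 5. For ptLNPIFN-Y the log2 fold change was -1.35 ± 0.43 against Control and -1.16 ± 0.43 against Model (SE, n = 5 each, edgeR adjusted p 0.0394 and 0.119).

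The call for Col8a2 was lost without any of Control 1 to Control 4, ptLNPIFN-Y 1, ptLNPIFN-Y 4 or ptLNPIFN-Y 5 (edgeR adjusted p 0.0518 to 0.106), with the tissue covariates (0.199) and without ptLNPIFN-Y 5 and LNPIFN-Y 5, which lacked Zp3 (0.0519). In ptLNPIFN-Y against Control, 2 members were thus higher and 2 lower, against 12.2% and 5.39% of all genes (17.6% in all). In LNPIFN-Y against Control, 2 were higher and 0 lower, against 10.8% and 3.28% (14.1% in all). Groups did not overlap for 2 members in ptLNPIFN-Y against Control and for 4 in LNPIFN-Y against Control, where the background was 16.7% (11.1% above, 5.65% below) and 19.5% (13% above, 6.5% below). In both comparisons 2 of these members lay above Control, Col17a1 and Col9a3, and in LNPIFN-Y the 2 below were Col9a2 and Col26a1. When the 4 groups were tested together, 3 collagen genes differed, Col17a1, Col9a3 and Col24a1, against 11.9% of all genes (edgeR adjusted p 0.0112, 0.00254 and 0.0152). The promoter window of Col8a2, shown as that of a called member, holds 4 GC boxes, of which a pair overlaps.
Col8a2, chr4:126286544-126286843, plus strand: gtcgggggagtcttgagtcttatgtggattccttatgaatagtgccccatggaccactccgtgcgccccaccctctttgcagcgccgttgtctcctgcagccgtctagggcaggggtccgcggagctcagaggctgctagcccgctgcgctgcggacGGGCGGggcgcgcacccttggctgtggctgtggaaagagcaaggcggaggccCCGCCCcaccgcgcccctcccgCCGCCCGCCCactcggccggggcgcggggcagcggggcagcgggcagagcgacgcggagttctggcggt

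**Figure D3:**
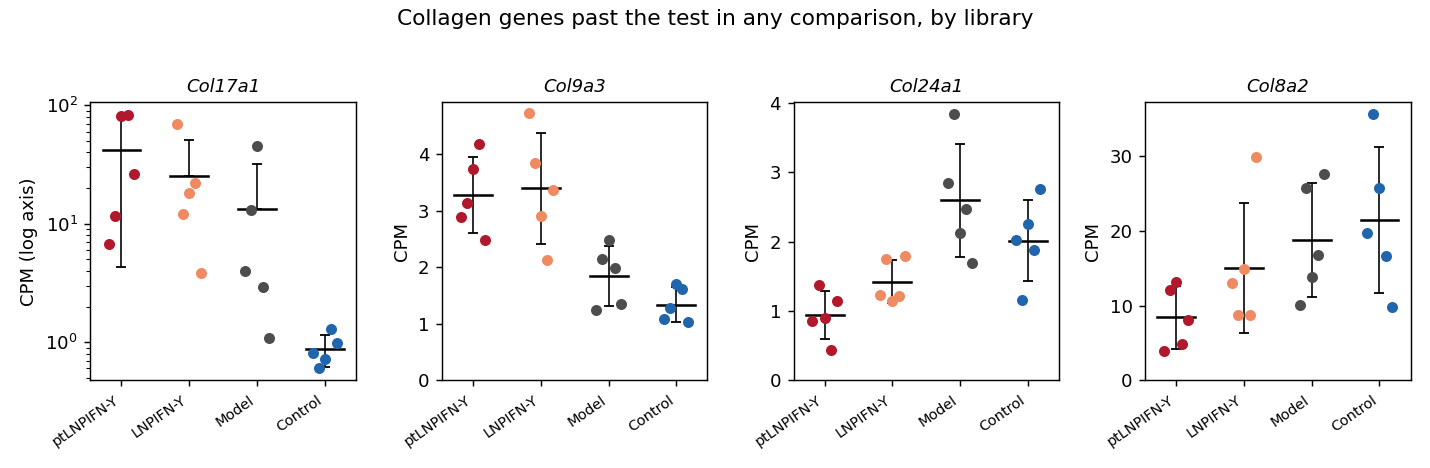
CPM of the 4 collagen genes past the edgeR test in any comparison, by library, with ptLNPIFN-Y left, then LNPIFN-Y, Model and Control; the axis is logarithmic for Col17a1 and starts at 0 for the others, lines are means and bars SD, with the lower arm left out where the SD exceeds the mean. Col17a1 is at 1.29 CPM or less in all Control libraries, and the ptLNPIFN-Y points of Col24a1, at 1.38 or less, lie below all Model points.

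Several other members had large fold changes that did not pass the test. Col8a1, the partner chain of Col8a2, had 3.75, 15.2, 11.3, 16.1 and 17.7 CPM in ptLNPIFN-Y, 19.3, 4.72, 7.17, 5.6 and 93.5 in LNPIFN-Y, 10.2, 3.89, 41.3, 8.96 and 5.15 in Model, and 4.47, 2.49, 6.1, 4.84 and 5.8 in Control. LNPIFN-Y 5 and Model 3 were far above the rest, and the log2 fold change in LNPIFN-Y against Control was 2.46 ± 0.81 (SE, n = 5 each, edgeR adjusted p 0.0519). DESeq2 called it (adjusted p 0.00846), while without LNPIFN-Y 5 the value was 0.95 (edgeR adjusted p 0.334). Col26a1, known in mice from testis and ovary, had 9.28, 2.51, 3.74, 1.58 and 5.9 CPM in ptLNPIFN-Y, 0.778, 6.93, 3.76, 6.2 and 1.06 in LNPIFN-Y, 13, 13, 1.7, 13.8 and 12.1 in Model, and 10.6, 7.9, 11.8, 12.4 and 9.99 in Control. Its LNPIFN-Y libraries all lay below Control, while Model 3 lay within the LNPIFN-Y range. The log2 fold change was -1.52 ± 0.60 in LNPIFN-Y against Model (SE, n = 5 each, edgeR adjusted p 0.176), and without Model 3 it was -1.82 with an adjusted p of 0.0417.

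Col25a1, a transmembrane collagen first known from amyloid plaques, ranged from 0.134 to 5.24 CPM in ptLNPIFN-Y, 0.331 to 8.08 in LNPIFN-Y, 1.76 to 17.5 in Model and 3.04 to 13.3 in Control. Its log2 fold change in ptLNPIFN-Y against Model was the lowest of the 41, at -1.92 ± 0.92 (SE, n = 5 each, edgeR adjusted p 0.226). Col22a1, a collagen of tissue junctions, came next at -1.85 ± 0.79 (edgeR adjusted p 0.177). It had 0.871 to 1.58 CPM in ptLNPIFN-Y and 0.581 to 16.3 in Model, whose highest value was again Model 3. Without Model 3 the value for Col22a1 was -0.57, and without Model 2 that for Col25a1 was -1.23 (edgeR adjusted p 0.549 and 0.449). Col28a1, known from peripheral nerve, had 2.64, 4.7, 2.35, 3.41 and 6.3 CPM in ptLNPIFN-Y and 1.76, 2.32, 2.12, 1.66 and 2.72 in Model, which overlapped, with a difference of 0.87 ± 0.44 on the log2 scale (SE, n = 5 each, edgeR adjusted p 0.254).

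Col5a3, a chain of the fibril-regulating collagen V, had 59, 35.8, 8.44, 14.4 and 68.7 CPM in ptLNPIFN-Y, against 18.9, 59.8, 15.1, 13 and 18.8 in Model. The ptLNPIFN-Y group held both the lowest and the highest of these 10 values. Col11a1, which starts thin fibrils in cartilage, had 42.4, 20.4, 12.2, 7.59 and 1.01 CPM in ptLNPIFN-Y and 2.01, 26.8, 22.9, 26.9 and 86.4 in LNPIFN-Y. It had 40.7, 21.6, 9.29, 59.8 and 28.1 CPM in Model and 32.9, 34.6, 87.8, 33.8 and 69.4 in Control, and its log2 fold change in ptLNPIFN-Y against Control was -1.63 ± 0.80 (SE, n = 5 each, edgeR adjusted p 0.151). Col23a1, a transmembrane collagen, ran from 4.36 to 15.4 CPM in ptLNPIFN-Y, 3.7 to 17.3 in LNPIFN-Y, 5.95 to 31.1 in Model and 11.8 to 52.7 in Control. The top Control value came from Control 2, and the Control group overlapped all others.

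Ratios between chains, in most cases chains that assemble together, were compared next, and no difference passed the test in the 4 comparisons made. The exception was Col3a1 to Col1a1, whose chains belong to collagens III and I. The log2 ratio of Col1a1 to Col1a2 averaged -0.50 ± 0.35 in ptLNPIFN-Y, -0.32 ± 0.47 in LNPIFN-Y, -0.49 ± 0.35 in Model and -0.65 ± 0.09 in Control (SD, n = 5 each). That of Col4a1 to Col4a2 averaged 0.83 ± 0.09 in ptLNPIFN-Y, 0.81 ± 0.26 in LNPIFN-Y, 0.85 ± 0.10 in Model and 0.89 ± 0.06 in Control. Of 32 tests of 8 such ratios in 4 comparisons, 0 passed, and the smallest exact permutation p, two-sided over all regroupings of 5 against 5 libraries, was 0.143 for Col8a1 to Col8a2 in ptLNPIFN-Y against Model, with a difference of 1.47 on the log2 scale. The adjusted p was 0.976 for all 32. Regroupings of 5 against 5 libraries are so few that 1 ratio alone could not pass among 32 tests, however large its difference. The count of 0 after adjustment thus cannot show that the ratios were alike. An unadjusted p under 0.05 was within reach of each test, and none of the 32 had one. These ratios do not depend on how libraries are scaled. The particle groups were not tested against Control. The log2 ratio of Col8a1 to Col8a2 ran from -0.21 to 1.72 in ptLNPIFN-Y and from -3.82 to -0.75 in Control, without overlap. All other ratios, and this one in LNPIFN-Y, overlapped those of Control.

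Within groups, the abundant collagens varied together from library to library. After group means were taken out of log2 CPM, Pearson's r over the 20 libraries was 0.95 for Col1a1 with Col3a1, 0.93 for Col1a1 with Col1a2, 0.95 for Col4a1 with Col4a2, 0.91 for Col6a1 with Col6a2 and 0.71 for Col1a1 with Col6a1. Spearman's rho was 0.95, 0.92, 0.94, 0.87 and 0.76 in the same order. In two-sided permutation tests with 100000 resamples within groups, all 5 passed among 8 pairs, with adjusted p between 4e-05 and 0.00139 for r and between 4e-05 and 0.00157 for rho. The smallest p these resamples can give is 1e-05. Without the 2 libraries farthest from the median of the first gene, r stayed between 0.74 and 0.95.

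The other 3 pairs did not pass for r. For Col1a1 with Col4a1, r was 0.42 (permutation p 0.0809, adjusted 0.0925) and rho 0.54 (permutation p 0.0307, adjusted 0.0351), and r was 0.68 without the 2 farthest libraries. For Col4a1 with the endothelial gene Pecam1, r was 0.48 (permutation p 0.0606, adjusted 0.0808) and rho 0.60 (permutation p 0.0123, adjusted 0.0164). Col1a1 with the fibroblast receptor Pdgfra had an r of 0.00 (permutation p 0.993, adjusted 0.993) and a rho of 0.15 (permutation p and adjusted p 0.553). The r was 0.35 without the 2 farthest libraries.

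**Figure D4:**
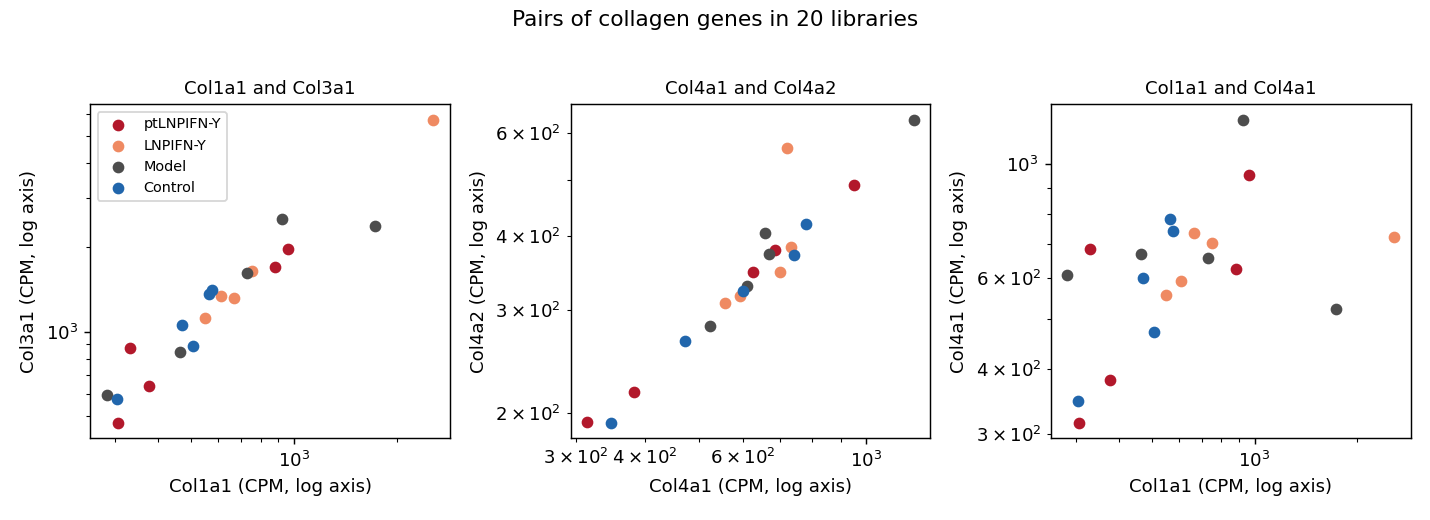
CPM of pairs of collagen genes in 20 libraries on log axes, coloured by group. Col1a1 with Col3a1 and Col4a1 with Col4a2 follow a line (r = 0.95 each within groups), and Col1a1 with Col4a1 scatters more widely (r = 0.42).

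Set against marker genes, the members differed in which cell markers they varied with from library to library. Each member was correlated within groups with the mean log2 CPM of 10 fibroblast markers and of 7 granulosa markers, 82 permutation tests chosen after the values were seen. The same was not done for all tested genes. The counts below thus have no background share and cannot be read as particular to collagens. With the fibroblast mean, 11 members passed with a positive r. They were Col14a1 at 0.88, Col15a1 at 0.86 and Col6a2 at 0.82, then Col5a1, Col5a2, Col6a1, Col1a2, Col3a1, Col6a3, Col1a1 and Col4a1 down to 0.67. With the granulosa mean, 11 others passed with a positive r, led by Col27a1 and Col9a2 at 0.94 each and Col4a4 at 0.89, followed by Col6a4, Col4a3, Col6a6, Col6a5, Col25a1, Col11a2, Col26a1 and Col13a1. Col8a1 at -0.76 and Col10a1 at -0.62 passed with a negative r, and 0 members passed with both lists.

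The adjusted p of these passing members ran from 0.00082 to 0.0437. A few libraries had very low granulosa means: the mean, centred on all libraries, was -4.57 in LNPIFN-Y 5, -4.09 in ptLNPIFN-Y 5 and -3.13 in LNPIFN-Y 1, against 0.60 to 1.96 in Control. Without the 2 libraries farthest from the median marker mean, r was 0.93 for Col27a1, 0.88 for Col9a2, 0.92 for Col4a4, 0.40 for Col13a1 and -0.42 for Col10a1. Points share their library and its depth, and the called members Col17a1, Col9a3, Col24a1 and Col8a2 passed with neither list. Without the 2 farthest libraries, their r with the granulosa mean was -0.64, -0.53, 0.38 and -0.13 in that order. With the fibroblast mean it was 0.21, -0.0062, 0.64 and 0.018. For rho, the adjusted p was 0.0833 for Col26a1, 0.0999 for Col13a1 and 0.159 for Col10a1 with the granulosa mean, so these 3 passed for r alone. With the fibroblast mean, Col4a2, Col16a1 and Col5a3 passed for rho alone (adjusted p 0.0367, 0.0475 and 0.0182).

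**Figure D5:**
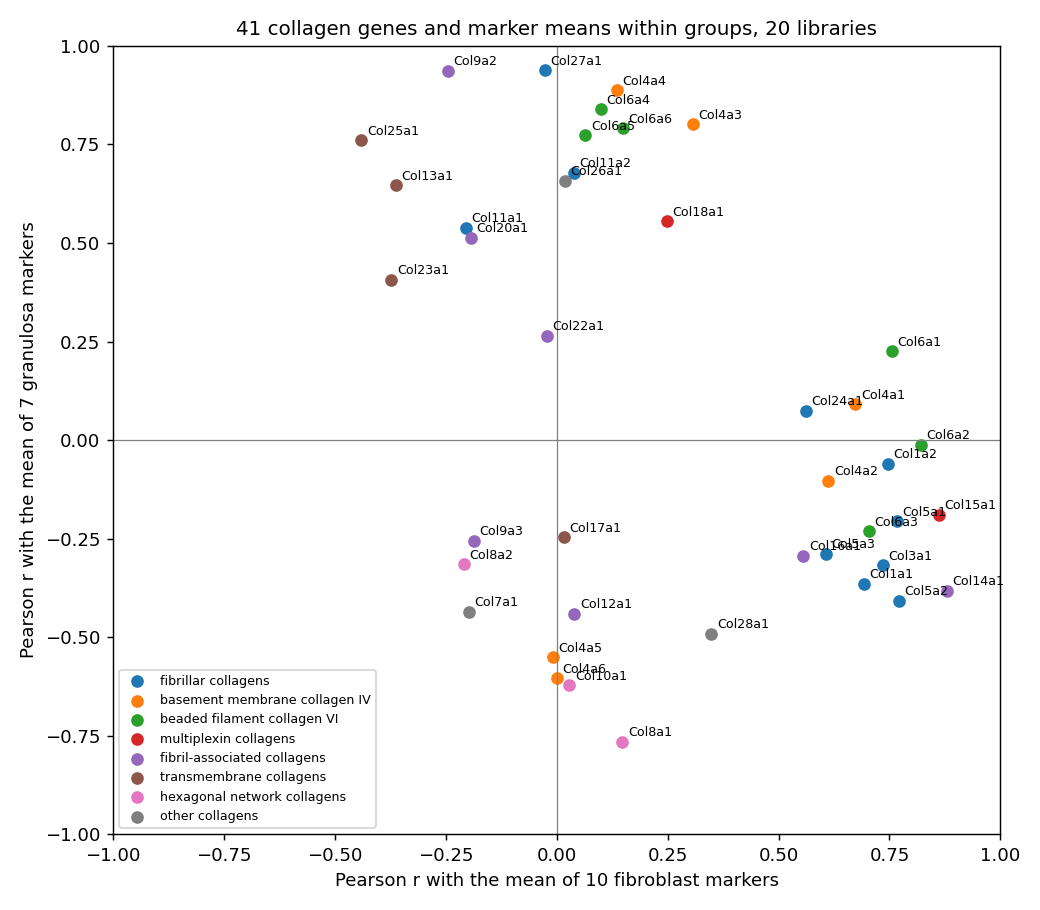
Pearson's r of each of the 41 collagen genes with the mean of 10 fibroblast markers (horizontal axis) and of 7 granulosa markers (vertical axis) over 20 libraries after group means were taken out, coloured by class. Col14a1, Col15a1 and Col6a2 lie furthest right (0.88, 0.86 and 0.82), and Col27a1 and Col9a2 at the top (0.94 each).

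Of the genes that make, cut, bind or sense collagen, none passed the test in the tumour model and some did with the particles. Of 6 lists with 91 entries, of which 87 were tested, 0 genes passed the edgeR test in Model against Control. The background there was 0% of all genes, so this count cannot show that the lists were unchanged. All 15 regulators of the TGF-beta list, the growth factor best known for inducing collagen, had a positive fold change there, with a median of 0.34. Of them 2 had an unadjusted p under 0.05, against 4.91% of all genes. This was not particular to that list: of 17 fibril-binding and matrix genes 16 were positive, with a median of 0.37 and 3 at such a p. Medians of the lists other than TGF-beta ran from 0.06 to 0.71, against 0.01 for all genes. Among 10 tested collagen receptors, Lair1, an inhibitory receptor through which leukocytes sense collagen, rose in both particle groups. It averaged 46.8 ± 16.6 CPM in ptLNPIFN-Y, 55.1 ± 32.2 in LNPIFN-Y, 7.85 ± 6.61 in Model and 4.01 ± 0.815 in Control (SD, n = 5 each). Both particle groups, at 23.7 CPM or more, lay above all Model libraries, which reached 19.7.

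The log2 fold change of Lair1 against Model was 2.58 ± 0.46 in ptLNPIFN-Y and 2.81 ± 0.47 in LNPIFN-Y (SE, n = 5 each, edgeR adjusted p 0.00119 and 6.93e-04). Beside it, 6 of 8 leukocyte markers were higher in each of these comparisons, and their summed level ran from 619 to 1277 CPM in ptLNPIFN-Y, 511 to 1422 in LNPIFN-Y, 181 to 579 in Model and 189 to 330 in Control, with none at 0. Their part in the Lair1 difference was not tested. Irf1, a transcription factor induced by interferon-γ, averaged 360 ± 77.9 CPM in ptLNPIFN-Y and 53.4 ± 13.9 in Model (SD, n = 5 each), with a log2 fold change between them of 2.75 ± 0.22 (SE, n = 5 each) and an edgeR adjusted p of 1.44e-07.

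Of 21 genes for modification and folding, 20 had a negative fold change in ptLNPIFN-Y against Model, with a median of -0.26 against -0.05 for all genes. In that comparison 1 of them passed, as a lower gene, against 7% of all genes called and 0.948% called lower. P3h2, a prolyl 3-hydroxylase that acts on collagen IV, averaged 13.6 ± 4.79 CPM in ptLNPIFN-Y, 16.8 ± 3.88 in LNPIFN-Y, 25.4 ± 7.8 in Model and 30.8 ± 6.47 in Control (SD, n = 5 each). Its log2 fold change was -0.90 ± 0.26 in ptLNPIFN-Y against Model and -1.18 ± 0.26 in ptLNPIFN-Y against Control (SE, n = 5 each, edgeR adjusted p 0.0449 and 0.00525). The call against Model was lost with the replicate block (edgeR adjusted p 0.110), and with the tissue covariates P3h2 was at -0.58 against Model and -0.72 against Control, neither past the test (0.219 and 0.155). It was also lost against Model in fits that left out Model 1, Model 2, Model 4, Model 5, LNPIFN-Y 2, LNPIFN-Y 4, ptLNPIFN-Y 2, ptLNPIFN-Y 4 or ptLNPIFN-Y 5 (edgeR adjusted p 0.0507 to 0.141). None of the 16 basement membrane partners passed in any comparison, where the share of all genes called ran from 0% to 17.6%.

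In LNPIFN-Y against Control, 8 genes were higher besides Lair1 and Plod3. Together with Lair1 and Plod3 they made up a share of the tested list genes close to the 10.8% of all genes that were higher. The 8 include Sparc, a collagen-binding matrix protein, Bgn, a fibril-binding proteoglycan, and Pcolce, the enhancer of procollagen cleavage. The others are Adamts3, which removes the amino-terminal propeptide, P4ha3, a prolyl 4-hydroxylase subunit, and the regulators Tgfb1, Tgfbi and Scx. Sparc averaged 2507 ± 855 CPM in LNPIFN-Y and 1197 ± 284 in Control (SD, n = 5 each), a difference of 1.07 ± 0.28 on the log2 scale (SE, n = 5 each, edgeR adjusted p 0.0174). Bgn averaged 1119 ± 981 CPM in LNPIFN-Y and 327 ± 120 in Control (SD, n = 5 each), a difference of 1.78 ± 0.53 on the log2 scale (edgeR adjusted p 0.0341), with a highest value of 2842 in LNPIFN-Y. Without LNPIFN-Y 5, Bgn stood at 1.07 and Sparc at 0.84, Adamts3 at 1.04 and P4ha3 at 1.21 on the log2 scale, and every call of these lists in that comparison other than Lair1 was lost (edgeR adjusted p 0.0633 to 0.218). The same calls were all lost without Control 2 (edgeR adjusted p 0.051 to 0.107), where Bgn stood at 1.61 and Sparc at 0.95. Without Control 3, all but Lair1 and P3h2 were lost (edgeR adjusted p 0.0564 to 0.106). With the tissue covariates Bgn was at 0.44 and Sparc at 0.41 (edgeR adjusted p 0.77 and 0.548). With the replicate block Bgn had an adjusted p of 0.0759. P3h2 was lower there too, at -0.87 ± 0.26 on the log2 scale (SE, n = 5 each, edgeR adjusted p 0.0341). In ptLNPIFN-Y against Control, Lair1, Plod3 and Scx were higher and P3h2 was lower, beside 12.2% of all genes higher and 5.39% lower. With the tissue covariates Plod3 stood at 0.11 and Scx at 1.17 in that comparison, neither past the test (edgeR adjusted p 0.79 and 0.293). Plod3 was also lost with upper-quartile scaling and with library size alone (edgeR adjusted p 0.0698 and 0.0949). Scx was lost without Control 2, Control 3, Control 4 or ptLNPIFN-Y 4 (edgeR adjusted p 0.0585 to 0.0844). Over all comparisons between 2 groups, 11 genes of the lists passed, and 5 did without ptLNPIFN-Y 5 and LNPIFN-Y 5. The share of all genes past the test in any of these comparisons was not computed.

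The promoter windows of 33 of the 41 genes were found in RefSeq. Both strands were searched for 5 short motifs, counting a gene that has the motif in any of its windows. A TATA box, TATAAA, was in those of 5 genes, a CCAAT box in those of 12 and a GC box, GGGCGG, in those of 22. All 32544 promoters in the table held them in 13.6%, 37.4% and 35.9%. The gamma-activated site TTCNNNGAA, bound by the STAT factor that interferon-γ activates, was in those of 2 genes, Col28a1 and Col6a5, against 8.33% of all promoters. The core of the interferon-stimulated response element, GAAA repeated after a gap of 2 bases, was in 0 of the collagen windows, against 3.45% of all.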

How the data were processed

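Ovary RNA from 20 mouse samples was sequenced as bulk libraries. The submitters' processing notes name HISAT2, RSEM, StringTie and DESeq2, with no versions, and the build GRCm38.p6; strandedness is not given in the sources used here. The deposited table holds RSEM expected counts per gene, as the authors made them, for 20960 rows, of which 9.85% of values have decimals. These expected counts were rounded. Symbols that a spreadsheet had turned into dates were restored for 26 rows, and 1 blank line was skipped. Genes passing filterByExpr (minimum count 10) were tested with edgeR 4.0.16 in R 4.3.3, by quasi-likelihood with TMM scaling, in a model of all 20 libraries, with Benjamini-Hochberg adjustment over 15723 genes and a threshold of 0.05. The SE is the size of the log2 fold change divided by the root of F. CPM used TMM-adjusted library sizes, and log2 CPM a prior count of 2. The steps were tested on simulated data. Total counts were 16496793 to 17218043 per library.

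The collagen members, gene lists and tests were chosen with earlier results of these data known. Values in every library were given for the main chains of collagens I, III, IV and VI, for members past the test, and for the 3 highest and 3 lowest fold changes per comparison with a mean of at least 1 CPM, in full or as ranges; of the other lists, the 2 smallest p per list and comparison could be named, besides genes past the test. Alternatives were other scalings, DESeq2 1.42.0, no filter, fits of the compared groups alone, the replicate number as a block, sample quality weights (limma 3.58.1), tissue covariates (the oviduct mean and the mean of granulosa and oocyte markers), and leaving out libraries. Leaving out Model 3 with LNPIFN-Y 5 was chosen after seeing the data. Promoters came from RefSeq on GRCm38.p6.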

Additional observations from a re-analysis of the deposited data

Results flagged for a closer look

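Among 92 groups of 5 libraries tested for a value far from the rest, 16 held one. Chance flags about 1 in 20 groups of genes chosen without regard to their values; most genes here were named for a call or an extreme fold change, so the count cannot be read against that share. Model 3 accounted for 5 of them. It was high for Col4a6 at 105 CPM (the other Model libraries ran from 18.1 to 35.6), Col17a1 at 45.2 (1.07 to 13.1), Col8a1 at 41.3 (3.89 to 10.2) and Col22a1 at 16.3 (0.581 to 4.72), and low for Col26a1 at 1.70 (12.1 to 13.8).

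LNPIFN-Y 5 accounted for 4, all high: Col3a1 at 5711 CPM (the others of its group 1116 to 1645), Col1a1 at 2566 (551 to 752), Col4a6 at 216 (25.4 to 40.5) and Col8a1 at 93.5 (4.72 to 19.3). Model 2 was high for Col6a3 at 691 CPM (127 to 249) and Col5a3 at 59.8 (13.0 to 18.9).

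The other 5 came from 1 library each. Col9a2 was at 36.5 CPM in ptLNPIFN-Y 1 (0.603 to 6.87), Col17a1 at 69.6 in LNPIFN-Y 1 (3.84 to 22.0), and Col6a1 at 443 in LNPIFN-Y 3, below the 530 to 545 of its group. Col4a1 was at 1219 CPM in Model 1 (524 to 668), and Col23a1 at 52.7 in Control 2 (11.8 to 23.2).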

How the results depend on the processing

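The collagen medians kept their sign under the other scalings in all 7 comparisons, but that in LNPIFN-Y against Control was 0.0060 with library size alone and 0.047 with upper-quartile scaling, against 0.15, and library size alone moved the median of all genes by -0.10 to -0.16 in the comparisons of particle groups with Model or Control. With tissue covariates the collagen median in LNPIFN-Y against Control was -0.17, against 0.15. With DESeq2, 1 collagen gene was higher in Model against Control, 1 higher and 2 lower in LNPIFN-Y against Model, 1 higher in ptLNPIFN-Y against Model, 3 lower for the mean of both particle groups against Model and 2 lower in LNPIFN-Y against Control. In LNPIFN-Y against Control, DESeq2 also gained Col8a1 as a higher gene. With quality weights, the lower genes numbered 2 in ptLNPIFN-Y and 3 in LNPIFN-Y against Model, 5 for the mean, 6 in ptLNPIFN-Y and 4 in LNPIFN-Y against Control. With them, 1 was higher in ptLNPIFN-Y against Model and 5 against Control, and 7 differed among the 4 groups. The weights also turned the uncalled Col1a1 (0.15) and Col3a1 (0.16) in ptLNPIFN-Y against Model and Col3a1 (-0.060) in Model against Control. The cause was not tested.

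With tissue covariates, 1 gene was lower in LNPIFN-Y against Model, 0 were higher for the mean, 1 was higher and 1 lower in LNPIFN-Y against Control, 0 were lower in ptLNPIFN-Y against Control and 0 differed among the 4 groups. In fits of the compared groups alone, 0 were higher for the mean, and with library size alone 2 were lower. Without the libraries with no Zp3 count, 1 was lower in ptLNPIFN-Y against Control. Without Model 3 and LNPIFN-Y 5, 1 was higher in LNPIFN-Y against Model, 2 were higher and 3 lower in ptLNPIFN-Y against Model, and 2 higher and 2 lower for the mean. The 11 called genes of the collagen machinery lists became 20 with DESeq2, 19 with the compared groups alone, 32 with weights, 2 with covariates, 5 without the libraries with no Zp3 count and 20 without Model 3 and LNPIFN-Y 5.

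Leaving out 1 library at a time, the collagen median ran from 0.18 to 0.44 in Model against Control, -0.75 to -0.42 in ptLNPIFN-Y and -0.36 to -0.10 in LNPIFN-Y against Model, -0.43 to -0.094 in ptLNPIFN-Y against LNPIFN-Y, -0.45 to -0.21 for the mean, and -0.30 to -0.030 in ptLNPIFN-Y and 0.016 to 0.21 in LNPIFN-Y against Control. Such fits gave 0 to 1 higher and 0 to 2 lower genes in LNPIFN-Y against Model, 0 to 2 higher and 1 lower in ptLNPIFN-Y against Model, 0 to 2 higher and 1 to 3 lower for the mean, 2 to 3 higher and 0 to 1 lower in LNPIFN-Y against Control, 2 higher and 0 to 3 lower in ptLNPIFN-Y against Control, 3 to 4 among the 4 groups, and 2 to 20 genes of the machinery lists. The same-numbered libraries had a mean correlation of -0.05 over 30 pairs, against 0.02 over 120 pairs of different numbers. Single pairs ran from -0.70 to 0.76 and from -0.74 to 0.76, so these means cannot show whether such libraries share more than a number. With the replicate block, 5 genes of the machinery lists were called and 6 gene pairs passed, against 11 and 5, and it changed no collagen call. Depth limits Col24a1, Col9a3 and Col10a1, which had few counts per library.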
